A study of Rattus norvegicus with 28 samples.

Results

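The H3K4 methyltransferase complexes were followed through 10 genes in NRK-49F, a line of rat kidney fibroblasts. Of these, 6 encode catalytic subunits (Kmt2a, Kmt2b, Kmt2c, Kmt2d, Setd1a and Setd1b) and 4 encode the core that every such complex shares (Wdr5, Rbbp5, Ash2l and Dpy30). The members were listed by name, all 10 were found among the 30178 genes of the expression table, and all 10 passed the filter on low values that left 12315 genes for testing. The 8 RNA-seq libraries formed 4 groups of 2. They were cells that received both TGF-β (transforming growth factor β1) and an siRNA, a small interfering RNA, to the homeobox gene Hoxc8 (siHoxc8), cells that received TGF-β under methionine restriction (MetR), cells that received TGF-β alone, and control cells. All cells were of the same line and, per the labels, were kept in 10% serum and then starved for 24 h in 0.2% serum. The labels print the TGF-β dose as 5 ng per uL, and the titles of its 3 groups give 48 h, whereas those of the control give no time. MetR medium held 30 uM methionine and its matched medium 200 uM. Which of these media the other groups had is not tied to a library by the labels, so a change of medium and a change of methionine cannot be told apart. No RNA-seq library with a control siRNA was among the 8, so delivery of an siRNA and loss of Hoxc8 cannot be told apart either. Since the labels leave unsaid whether replicates were separate cultures, p-values cover only the spread among these libraries, which may be technical. A further 20 chromatin and input samples, 3 of them H3K4me3 immunoprecipitations, were not analysed here.

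Methylation of lysine 4 on histone H3 marks active genes, with trimethylation at promoters and monomethylation at enhancers. Setd1a and Setd1b carry much of the trimethylation, Kmt2a and Kmt2b act at selected promoters such as those of homeobox genes, and Kmt2c and Kmt2d act mainly at enhancers. Each enzyme is weak alone and needs the core, in which Wdr5 holds the catalytic subunit, Rbbp5 and Ash2l together stimulate its SET domain, and Dpy30 binds Ash2l. The methyl group comes from S-adenosylmethionine, which cells make from methionine.

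Promoter sequence is shown for members whose transcript level moved with MetR (Setd1b, Kmt2b and Rbbp5) and for Dpy30, whose level did not rise, because the CXXC domains of Kmt2a, Kmt2b and the Setd1 partner Cxxc1 bind unmethylated CpG. RefSeq windows on the GRCr8 build, running from 250 bases before to 50 bases after a transcript start, were matched for 7 of the 10 members (12 windows), and the windows shown are examples. Capitals mark each CpG.
Setd1b, chr12:39081822-39082121, minus strand: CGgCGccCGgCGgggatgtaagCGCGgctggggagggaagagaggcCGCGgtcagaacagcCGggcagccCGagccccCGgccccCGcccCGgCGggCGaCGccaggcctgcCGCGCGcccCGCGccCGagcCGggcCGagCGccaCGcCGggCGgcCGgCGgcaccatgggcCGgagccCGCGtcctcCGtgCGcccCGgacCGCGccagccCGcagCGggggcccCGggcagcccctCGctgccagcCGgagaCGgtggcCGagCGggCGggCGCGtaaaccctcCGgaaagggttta
Kmt2b, chr1:94968392-94968691, minus strand: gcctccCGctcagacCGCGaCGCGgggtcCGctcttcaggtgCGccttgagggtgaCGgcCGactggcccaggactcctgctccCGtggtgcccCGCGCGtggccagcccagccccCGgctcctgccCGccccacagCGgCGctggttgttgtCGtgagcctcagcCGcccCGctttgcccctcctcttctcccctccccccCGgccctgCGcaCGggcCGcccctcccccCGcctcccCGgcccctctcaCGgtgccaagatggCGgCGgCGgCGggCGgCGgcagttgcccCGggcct
Rbbp5, chr13:46464139-46464438, plus strand: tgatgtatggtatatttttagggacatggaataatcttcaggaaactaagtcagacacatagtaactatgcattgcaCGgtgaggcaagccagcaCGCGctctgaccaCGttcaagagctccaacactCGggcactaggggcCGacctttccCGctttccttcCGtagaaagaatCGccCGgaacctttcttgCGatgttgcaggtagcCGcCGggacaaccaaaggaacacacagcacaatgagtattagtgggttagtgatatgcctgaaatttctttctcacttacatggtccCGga
Dpy30, chr6:26872562-26872861, plus strand: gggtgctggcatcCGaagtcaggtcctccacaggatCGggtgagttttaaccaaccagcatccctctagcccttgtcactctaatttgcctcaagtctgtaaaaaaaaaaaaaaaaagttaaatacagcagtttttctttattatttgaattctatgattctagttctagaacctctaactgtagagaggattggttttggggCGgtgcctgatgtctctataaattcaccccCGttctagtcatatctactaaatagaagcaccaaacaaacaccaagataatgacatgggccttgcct
Dpy30, chr6:26878503-26878802, plus strand: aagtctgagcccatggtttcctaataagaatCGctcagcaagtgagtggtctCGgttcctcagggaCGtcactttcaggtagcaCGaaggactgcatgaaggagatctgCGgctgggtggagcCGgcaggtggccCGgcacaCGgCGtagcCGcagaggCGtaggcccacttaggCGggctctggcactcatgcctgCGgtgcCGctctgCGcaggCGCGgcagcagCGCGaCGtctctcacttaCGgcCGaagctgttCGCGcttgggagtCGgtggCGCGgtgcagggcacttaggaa
The Setd1b window held 50 CpG, a number reached by 0.729% of the 33469 RefSeq windows, whose median was 7. The Kmt2b window held 34 and the Rbbp5 window 14. Of the Dpy30 windows, the one at 26872562 held 4 and the one at 26878503 held 27. Among the windows matched, CpG-rich ones were not shared by all members that moved with MetR, since the single window of Wdr5 held 3. Kmt2d, which also moved, had no window. Which transcript starts these cells use was not tested. Of the windows not shown, the 5 of Kmt2c held 41 to 56 and that of Setd1a held 29. The letters GGGCGG or CCGCCC, the GC box on either strand, were in the Setd1b and Kmt2b windows and in the first Dpy30 window, but not in the Rbbp5 window or the second Dpy30 window, against 33.1% of all windows. These matches describe sequence and not bound sites.

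Levels are in FPKM, a library-scaled number of fragments per kilobase, as the authors deposited them. The whole reads behind them numbered 15118113 to 20146870 per library, and each member had 343 to 18603 reads in a library. Changes are differences of log2(FPKM + 1) ± SE, fitted with limma and understated for low genes by the added 1, and a gene was called at an adjusted p under 0.05 over the 12315 genes. The siRNA target Hoxc8 stood at 0.463 and 0.0771 FPKM in TGF-β with siHoxc8 cells, 0.417 and 0.614 in TGF-β with MetR cells, 4.32 and 5.01 in TGF-β cells, and 1.12 and 1.34 in control cells. Its level in the siRNA libraries thus lay below that in TGF-β cells (-2.17 ± 0.19, limma adjusted p = 0.000182), and so did its level under MetR (-1.90 ± 0.19, limma adjusted p = 0.000272). Of the fibroblast markers, 6 of 7 in the table reached 1 FPKM in each group, while Thy1 was listed at 0. The fibroblast markers summed to 9980 to 10500 FPKM in TGF-β with siHoxc8 cells, 5910 to 8670 in TGF-β with MetR cells, 11700 to 12700 in TGF-β cells and 6970 to 7040 in control cells. Against TGF-β, Vim fell with MetR (-1.04) and with siHoxc8 (-1.50), S100a4 fell (-0.70) and Pdgfrb rose (1.24) with MetR, and Col3a1 (2.85) and Pdgfra (2.40) rose with siHoxc8, with limma adjusted p of 7.96e-05 to 0.0252. With TGF-β against control, Vim rose (1.44) and Pdgfra (-1.58) and Pdgfrb (-1.36) fell, with limma adjusted p of 0.000258 to 0.012. The part of these changes in the values of the 10 genes was not tested. Endothelial markers summed to at most 0.908 FPKM and leukocyte markers to at most 2.73 FPKM in any library. Epithelial markers summed to 646 to 685 FPKM in TGF-β with siHoxc8 cells, 233 to 255 in TGF-β with MetR cells, 194 to 225 in TGF-β cells and 236 to 239 in control cells, nearly all of it from Krt8, and Epcam was listed at 0. Krt8 was higher with siHoxc8 against TGF-β (1.67 ± 0.11, limma adjusted p = 6.24e-05) and was not called with MetR (0.21 ± 0.11, limma adjusted p = 0.146). Cdh16, a cadherin of kidney tubule cells, had 2.53 and 2.76 FPKM in TGF-β with MetR cells, against 0.106 and 0.0209 FPKM in TGF-β cells (1.78 ± 0.15, limma adjusted p = 0.00017). The part of these marker differences in the values of the siHoxc8 and MetR groups was not tested. In bulk RNA, fewer cells of a type and less RNA per cell cannot be told apart.

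All 10 genes were expressed in every library, in an order by level that differed between groups. In control cells Dpy30 stood highest at 35.3 and 32.8 FPKM, followed by Kmt2d at 27.1 and 26.1, Wdr5 at 20.6 and 22.2, and Setd1a at 16.6 and 19.4. Ash2l, Kmt2a, Rbbp5 and Kmt2b lay between 11.3 and 14.6 FPKM, and within these the values of Kmt2a and Rbbp5, and of Rbbp5 and Kmt2b, overlapped. Kmt2c (7.46 and 6.78) and Setd1b (6.78 and 5.83) were lowest and met at 6.78 FPKM. The order changed with MetR, where Kmt2d led at 49.7 and 40.8 FPKM and Dpy30 lay at 21.6 and 30.4, overlapping Setd1a at 25.2 and 24.3. Setd1b spanned the widest range of the 10, with its highest library at 3.97 times its lowest.

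**Figure D1:**
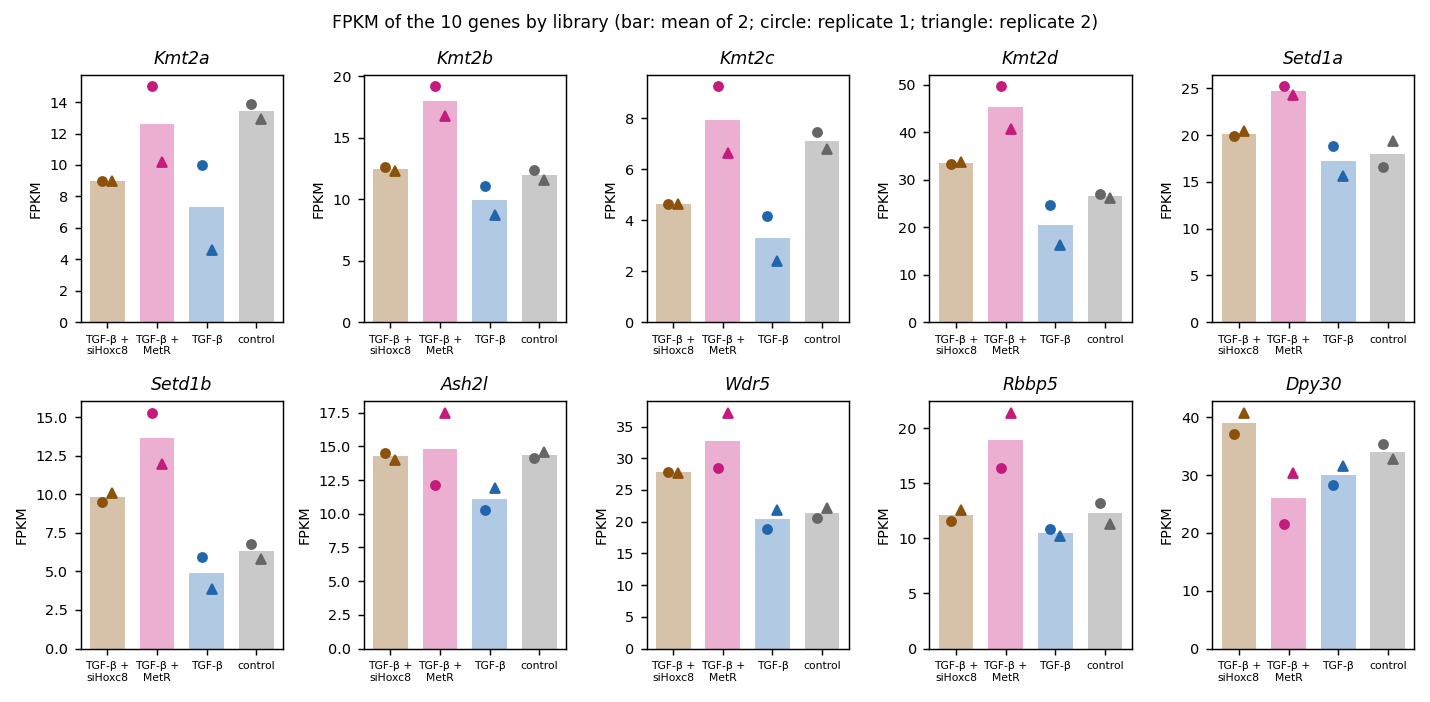
FPKM of each of the 10 genes (y axis, from 0) in the 4 groups (x axis), with a bar for the mean of 2 libraries, a circle for replicate 1 and a triangle for replicate 2. Setd1b and Kmt2d are highest in both TGF-β with MetR libraries, at 12.0 to 15.3 and 40.8 to 49.7 FPKM, while the TGF-β libraries of Kmt2a lie apart at 9.99 and 4.62 FPKM.

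TGF-β with MetR was compared with TGF-β alone, a comparison in which a change of medium and a change of methionine cannot be told apart. In it, 5 of the 6 methyltransferase genes and 2 of the 4 core genes rose, and no member fell. The median change of the 10 was 0.77, beside 0.18 over all genes tested. Of all genes, 34.8% were called higher and 19.0% lower.

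Setd1b, a catalytic subunit of the trimethylating complexes, had 15.3 and 12.0 FPKM in TGF-β with MetR cells, against 5.92 and 3.86 FPKM in TGF-β cells. The lower MetR library was above both TGF-β libraries, and Setd1b changed more than any other member (1.33 ± 0.19, limma adjusted p = 0.00112). Kmt2d, an enhancer methyltransferase, had 49.7 and 40.8 FPKM in TGF-β with MetR cells, against 24.8 and 16.3 FPKM in TGF-β cells. These groups did not overlap either (1.12 ± 0.19, limma adjusted p = 0.00199). Kmt2c, its paralog, had 9.25 and 6.64 FPKM in TGF-β with MetR cells, against 4.18 and 2.41 FPKM in TGF-β cells. It rose by about as much (1.07 ± 0.22, limma adjusted p = 0.00504) from a far lower level. Kmt2b, which acts at CpG-rich promoters, had 19.2 and 16.8 FPKM in TGF-β with MetR cells, against 11.1 and 8.75 FPKM in TGF-β cells. Its rise was 0.81 ± 0.13 (limma adjusted p = 0.00187).

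Setd1a, the paralog of Setd1b, had 25.2 and 24.3 FPKM in TGF-β with MetR cells, against 18.8 and 15.6 FPKM in TGF-β cells. Its rise was the smallest of the called ones (0.51 ± 0.12, limma adjusted p = 0.01) and was called in 12 of 19 alternatives. The call was lost when libraries were rescaled to equal median ratios (0.30, limma adjusted p = 0.0827). It was also lost when the trend with gene length was removed (0.24, limma adjusted p = 0.0762). Quantile normalization, limma-voom on recovered reads, library weights and a fit of the 2 groups alone ended it too. Without TGF-β replicate 2 the change was 0.38. Kmt2a had 15.0 and 10.2 FPKM in TGF-β with MetR cells, against 9.99 and 4.62 FPKM in TGF-β cells. The groups did not overlap, but its SE was the largest of the 10 and the difference missed the threshold (0.77 ± 0.30, limma adjusted p = 0.0638). It was called without TGF-β replicate 1 (1.25, adjusted p = 0.0073) and without MetR replicate 2 (1.02, adjusted p = 0.0452), whereas without TGF-β replicate 2 its change was 0.28 (adjusted p = 0.334).

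Among core genes, Rbbp5 had 16.4 and 21.4 FPKM in TGF-β with MetR cells, against 10.8 and 10.2 FPKM in TGF-β cells, and rose by 0.78 ± 0.15 (limma adjusted p = 0.0034). Wdr5, which also serves complexes other than these, had 28.4 and 37.2 FPKM in TGF-β with MetR cells, against 18.9 and 21.8 FPKM in TGF-β cells, and rose by 0.65 ± 0.14 (limma adjusted p = 0.00641). Both therefore moved with most of the enzymes. Ash2l had 12.1 and 17.5 FPKM in TGF-β with MetR cells, against 10.3 and 11.9 FPKM in TGF-β cells. These values almost met and the difference was not called (0.36 ± 0.17, limma adjusted p = 0.101), although it was without MetR replicate 1 (0.61, adjusted p = 0.00347). Dpy30 had 21.6 and 30.4 FPKM in TGF-β with MetR cells, against 28.3 and 31.6 FPKM in TGF-β cells. It was the only member with a negative change, its groups overlapped, and it was not called (-0.21 ± 0.16, limma adjusted p = 0.287). It was called lower without MetR replicate 2 (-0.45, adjusted p = 0.0134) and after rescaling (-0.42, adjusted p = 0.0388), whereas without MetR replicate 1 its change was 0.02 (adjusted p = 0.877). Rescaling moved the share of higher genes among all calls to 49.2%, against 64.7% as deposited, and left 6 members higher and 1 lower. Setd1b, Kmt2d, Kmt2c, Kmt2b, Rbbp5 and Wdr5 were called higher in 19 of 19 alternatives, which include each omission of 1 library.

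**Figure D2:**
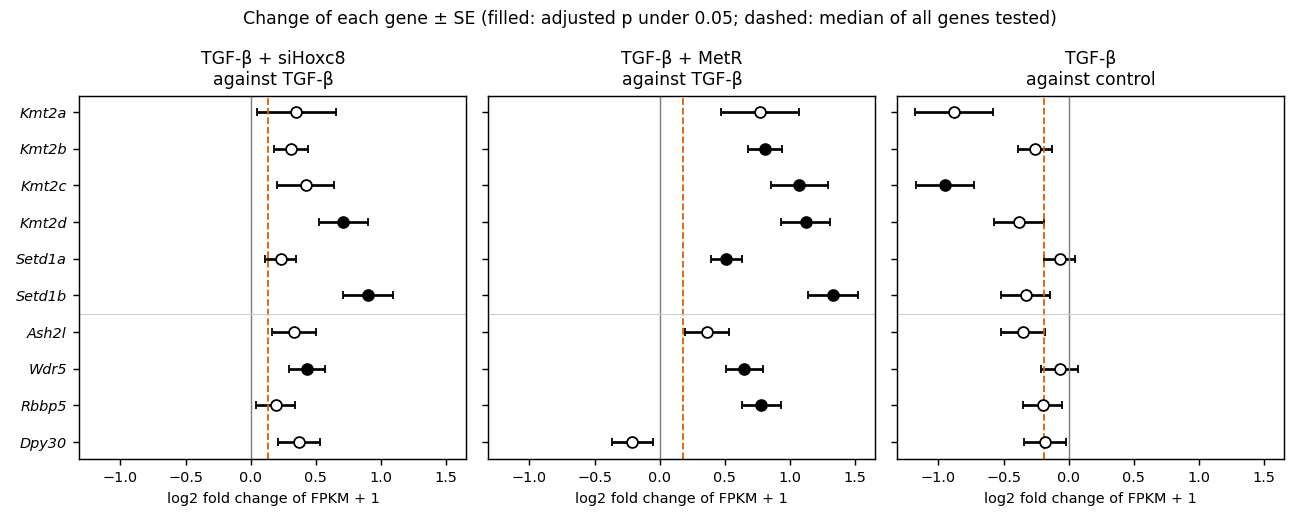
Log2 fold change of FPKM + 1 with its SE (x axis) for the 10 genes (y axis, methyltransferases above the line and core genes below), in TGF-β with siHoxc8 against TGF-β (left), TGF-β with MetR against TGF-β (middle) and TGF-β against control (right), with filled points for adjusted p under 0.05 and a dashed line at the median of all genes tested. In the middle panel 7 points are filled, all on the higher side, and Dpy30 alone lies below 0 at -0.21.

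TGF-β was compared with control, which asks what the growth factor does to these transcripts. A single member changed, Kmt2c, which fell. The median change of the 10 was -0.30, beside -0.19 over all genes, of which 10.3% were called higher and 28.6% lower. Kmt2c had 4.18 and 2.41 FPKM in TGF-β cells, against 7.46 and 6.78 FPKM in control cells, with no overlap (-0.95 ± 0.22, limma adjusted p = 0.0131). Its call held in 15 of 19 alternatives. It was lost with quantile normalization, without TGF-β replicate 2 (-0.65), without control replicate 1 (-0.89) and without control replicate 2 (-1.01).

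Kmt2a had 9.99 and 4.62 FPKM in TGF-β cells, against 13.9 and 12.9 FPKM in control cells. This gap was nearly as wide as that of Kmt2c but missed the threshold (-0.88 ± 0.30, limma adjusted p = 0.0525). It passed without TGF-β replicate 1 (-1.36, adjusted p = 0.00901) and without either MetR replicate (adjusted p = 0.0389 and 0.0391), whereas without TGF-β replicate 2 its change was -0.39 (adjusted p = 0.231). Kmt2d had 24.8 and 16.3 FPKM in TGF-β cells, against 27.1 and 26.1 FPKM in control cells (-0.38 ± 0.19, limma adjusted p = 0.142). Without TGF-β replicate 1 it was called lower (-0.67, adjusted p = 0.0179), so the TGF-β libraries differ in how far they lie from control. Ash2l had 10.3 and 11.9 FPKM in TGF-β cells, against 14.1 and 14.6 FPKM in control cells, and missed the threshold (-0.35 ± 0.17, limma adjusted p = 0.137), but was called lower without either MetR replicate (adjusted p = 0.019 and 0.0194). For Setd1a, Setd1b and Wdr5 the groups overlapped. The remaining changes lay between -0.33 and -0.07, with 95% intervals that included 0, and after rescaling those of Setd1a, Wdr5, Rbbp5 and Dpy30 were 0 or above. Rescaling moved the share of higher genes among all calls to 51.5%, against 26.5% as deposited.

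TGF-β with siHoxc8 was compared with TGF-β alone, where 3 members rose and none fell. The median change of the 10 was 0.36, beside 0.13 over all genes, of which 28.1% were called higher and 15.7% lower, so the share of members called was close to the share of all genes. Setd1b had 9.53 and 10.1 FPKM in TGF-β with siHoxc8 cells, against 5.92 and 3.86 FPKM in TGF-β cells. It rose by 0.90 ± 0.19 (limma adjusted p = 0.00781) and was called in 19 of 19 alternatives. Kmt2d had 33.3 and 33.7 FPKM in TGF-β with siHoxc8 cells, against 24.8 and 16.3 FPKM in TGF-β cells (0.71 ± 0.19, limma adjusted p = 0.0183). Its call was lost after rescaling (0.55, adjusted p = 0.0581), without TGF-β replicate 2 (0.42, adjusted p = 0.0634) and without either siHoxc8 replicate (adjusted p = 0.0787 and 0.0806). Wdr5 had 27.9 and 27.7 FPKM in TGF-β with siHoxc8 cells, against 18.9 and 21.8 FPKM in TGF-β cells (0.43 ± 0.14, limma adjusted p = 0.0404). This was the least firm of the 3, called in 8 of 19 alternatives, and lost without TGF-β replicate 1 (0.33, adjusted p = 0.182) or replicate 2 (0.53, adjusted p = 0.0582), without either siHoxc8 replicate (adjusted p = 0.152 and 0.141), without either control replicate (adjusted p = 0.0695) and after rescaling (0.27, adjusted p = 0.119).

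The 7 other members had positive changes between 0.19 and 0.42 that did not pass. Kmt2c stood at 4.63 and 4.64 FPKM in TGF-β with siHoxc8 cells (0.42 ± 0.22, limma adjusted p = 0.161), and Dpy30 at 37.1 and 40.8 FPKM (0.37 ± 0.16, limma adjusted p = 0.0972), both above the TGF-β libraries. Kmt2a at 8.98 and 9.01 FPKM lay between the TGF-β libraries (0.35 ± 0.30, limma adjusted p = 0.383). Kmt2a, Kmt2b and Kmt2c were called higher without TGF-β replicate 1 (0.83, 0.46 and 0.72, adjusted p = 0.0337, 0.0383 and 0.0392). Without TGF-β replicate 2 their changes were -0.14, 0.16 and 0.12 (adjusted p = 0.656, 0.376 and 0.674), so that of Kmt2a changed sign. Ash2l and Dpy30 were called higher without either MetR replicate (adjusted p = 0.0193 and 0.0197 for Ash2l, and 0.0119 and 0.0121 for Dpy30). Rescaling moved the share of higher genes among all calls to 48.8%, against 64.1% as deposited, and left Setd1b as the 1 member called higher.

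Both combined treatments were also set against control and against each other. These comparisons share libraries with those above, so their values are given side by side and not as separate evidence. In TGF-β with MetR against control, 6 members were higher and none lower, where 28.0% of all genes were called higher and 29.3% lower. The changes were 1.00 for Setd1b, 0.74 for Kmt2d, 0.58 for Wdr5 and Rbbp5, 0.55 for Kmt2b and 0.44 for Setd1a (limma adjusted p of 0.00325 to 0.0165). Kmt2a and Kmt2c, the members furthest below control in TGF-β cells, differed from control by -0.11 ± 0.30 and 0.12 ± 0.22 and were not called. Leaving out 1 control library ended some of these calls, with 3 members higher without control replicate 2, where Kmt2b, Kmt2d and Rbbp5 were lost (adjusted p = 0.0651, 0.0579 and 0.0836), and Setd1a and Wdr5 lost without control replicate 1 (adjusted p = 0.131 and 0.0646). Dpy30 at -0.40 ± 0.16 was not called (limma adjusted p = 0.0645), but was called lower without MetR replicate 2 (-0.63, adjusted p = 0.00303) and after rescaling (-0.39, adjusted p = 0.0465).

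In TGF-β with siHoxc8 against control, Setd1b was the 1 member called, where 21.7% of all genes were called higher and 27.0% lower. Setd1b had 9.53 and 10.1 FPKM in TGF-β with siHoxc8 cells, against 6.78 and 5.83 FPKM in control cells (0.57 ± 0.19, limma adjusted p = 0.042). This call was lost without either control replicate (0.66 and 0.48, adjusted p = 0.0879 and 0.191) or either siHoxc8 replicate (0.61 and 0.53, adjusted p = 0.117 and 0.157). Kmt2c changed by -0.53 ± 0.22 without passing (limma adjusted p = 0.0839), and was called lower without either TGF-β replicate (adjusted p = 0.0411 and 0.0406). Wdr5 was not called (0.36 ± 0.14, limma adjusted p = 0.0666), although it was called higher in 9 of 19 alternatives. Without either MetR replicate its change was also 0.36. Kmt2a had 8.98 and 9.01 FPKM in TGF-β with siHoxc8 cells, against 13.9 and 12.9 FPKM in control cells, with no overlap. It was not called (-0.53 ± 0.30, limma adjusted p = 0.181), but was called lower in 2 of 19 alternatives. Its SE came from all 4 groups, and its replicates differed by 0.97 in TGF-β cells and 0.52 in TGF-β with MetR cells, against 0.10 in control cells.

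In TGF-β with siHoxc8 against TGF-β with MetR, which sets the treatments directly against each other, Dpy30 was higher and 3 members were lower, where 24.9% of all genes were called higher and 29.3% lower. Dpy30 had 37.1 and 40.8 FPKM in TGF-β with siHoxc8 cells, against 21.6 and 30.4 FPKM in TGF-β with MetR cells (0.58 ± 0.16, limma adjusted p = 0.0166). The lower members were Kmt2c (-0.65 ± 0.22), Rbbp5 (-0.59 ± 0.15) and Kmt2b (-0.50 ± 0.13), with limma adjusted p of 0.0384, 0.0111 and 0.0151. All 4 calls were lost without siHoxc8 replicate 1 (adjusted p of 0.0503 to 0.123), and 3 of them, those of Dpy30, Kmt2b and Kmt2c, without siHoxc8 replicate 2 (adjusted p of 0.0781 to 0.119). Kmt2c was also lost without MetR replicate 1 (-0.44) and without either control replicate. Its call was lost as well after median ratio rescaling, with no filter on low values and with library weights, and held in 11 of 19 alternatives. Setd1b and Kmt2d differed by -0.43 ± 0.19 and -0.42 ± 0.19 between these treatments, with 95% intervals of -0.88 to 0.02 and -0.85 to 0.02. Both were called lower without either TGF-β replicate (adjusted p of 0.0233 to 0.0486), and Wdr5 without MetR replicate 1 (-0.41, adjusted p = 0.0173).

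**Figure D3:**
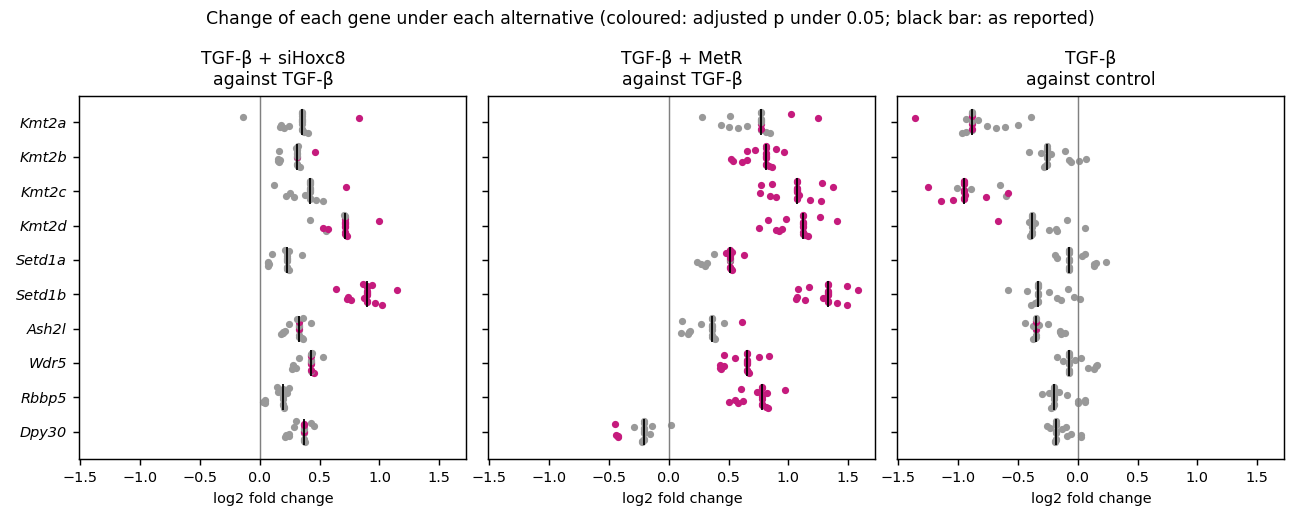
Log2 fold change (x axis) of the 10 genes (y axis) under each of the 19 alternatives, in TGF-β with siHoxc8 against TGF-β (left), TGF-β with MetR against TGF-β (middle) and TGF-β against control (right), with coloured points for adjusted p under 0.05 and a black bar for the value in the text. Setd1b is coloured throughout in the left and middle panels, whereas Kmt2a ranges from 0.28 to 1.25 in the middle panel.

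The members split by length. In TGF-β and in TGF-β with MetR cells, the replicate differences of the catalytic and core genes also lay apart. The 6 methyltransferase genes were 5949 to 18552 bases long and the 4 core genes 787 to 3852 bases, against a median of 2201 bases over genes tested. These are the lengths that FPKM was divided by, and not the spans of the genes on the genome. On the log2 scale, replicate 1 exceeded replicate 2 by 0.05 to 0.52 in TGF-β with MetR cells and by 0.25 to 0.97 in TGF-β cells for all 6 methyltransferase genes. For core genes this difference was -0.50 to -0.37 in TGF-β with MetR cells and -0.20 to 0.08 in TGF-β cells. In TGF-β with siHoxc8 cells the differences of the 10 genes stayed within -0.13 and 0.05, and in control cells within -0.21 and 0.21. Other genes showed the same trend in TGF-β cells, where the median difference was -0.17 for genes of up to 1000 bases and 0.23 for those over 6000. In TGF-β with MetR cells these medians were only -0.08 and 0.06, a narrower range than that of the members. The class of 2000 to 4000 bases, which holds Rbbp5, Wdr5 and Ash2l, had a median of -0.08 there. The change with MetR against TGF-β also grew with length, with medians of 0.00 for genes of up to 1000 bases and 0.33 for those over 6000. When the trend with length was removed within each library, the rises with MetR were 1.07 for Setd1b, 0.76 for Kmt2c, 0.75 for Kmt2d, 0.55 for Rbbp5, 0.52 for Kmt2b and 0.43 for Wdr5, all still called (limma adjusted p of 0.000292 to 0.0285). The fall of Kmt2c with TGF-β was then -0.58 (limma adjusted p = 0.0173), and the rises of Setd1b and Kmt2d with siHoxc8 were 0.74 and 0.53 (limma adjusted p = 0.00662 and 0.00148). The calls of Setd1a with MetR (0.24, limma adjusted p = 0.0762) and of Wdr5 with siHoxc8 (0.28, limma adjusted p = 0.122) were then lost.

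**Figure D4:**
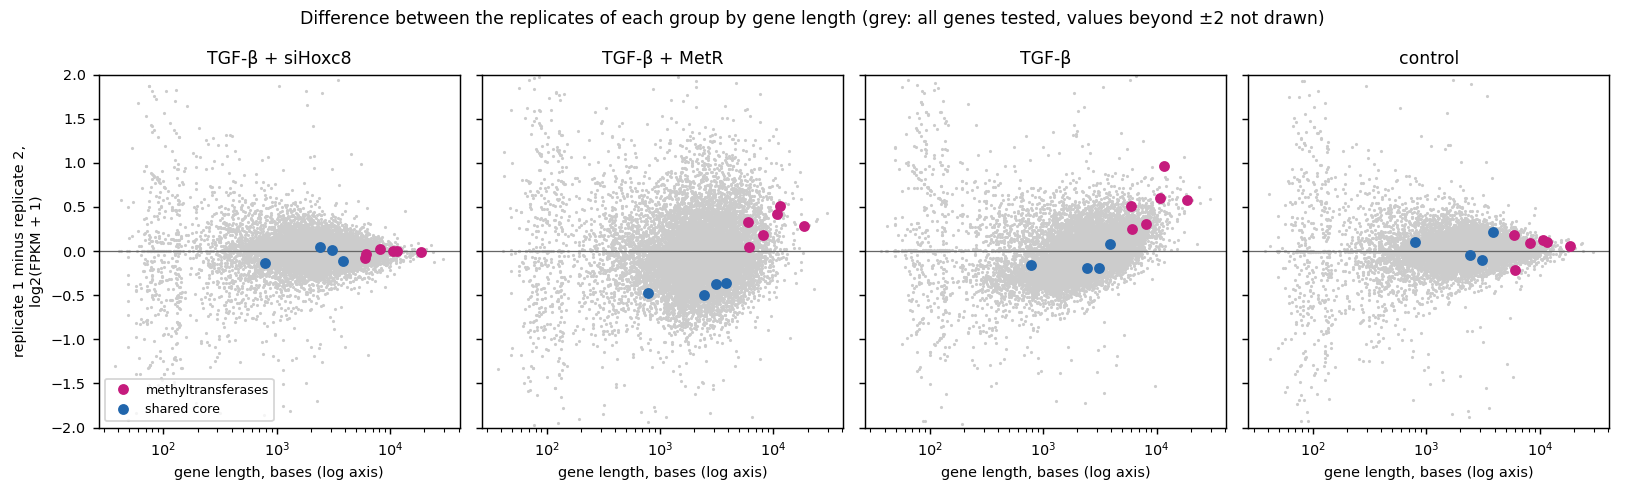
Replicate 1 minus replicate 2 on the log2(FPKM + 1) scale (y axis) against gene length as used for FPKM, in bases (log x axis), in each group. All tested genes are in grey and the 10 members are coloured by role. The methyltransferase genes lie at 0.25 to 0.97 in TGF-β cells and between -0.08 and 0.02 in TGF-β with siHoxc8 cells.

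The balance of core to catalytic transcripts was taken as the summed FPKM of the 4 core genes over that of the 6 methyltransferase genes. This ratio was taken within a library, so no scaling of a library moves it. However, it sets shorter genes over longer ones and was not corrected for the trend with gene length. It was 1.02 and 1.05 in TGF-β with siHoxc8 cells, 0.587 and 0.961 in TGF-β with MetR cells, 0.914 and 1.47 in TGF-β cells, and 0.988 and 0.98 in control cells. Both MetR libraries lay below control in this sum, and the TGF-β libraries fell on either side of it. Without Dpy30 the ratio was 0.607 and 0.602 in TGF-β with siHoxc8 cells, 0.425 and 0.687 in TGF-β with MetR cells, 0.536 and 0.853 in TGF-β cells, and 0.569 and 0.582 in control cells, so MetR replicate 2 then lay above control. Replicates lay far apart in these 2 groups, and no order of groups was read from the ratio. Kmt2d and Dpy30 weigh most in these sums, and without Kmt2d the ratio was 1.64 and 1.68 in TGF-β with siHoxc8 cells, 0.934 and 1.52 in TGF-β with MetR cells, 1.37 and 2.15 in TGF-β cells, and 1.46 and 1.43 in control cells.

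**Figure D5:**
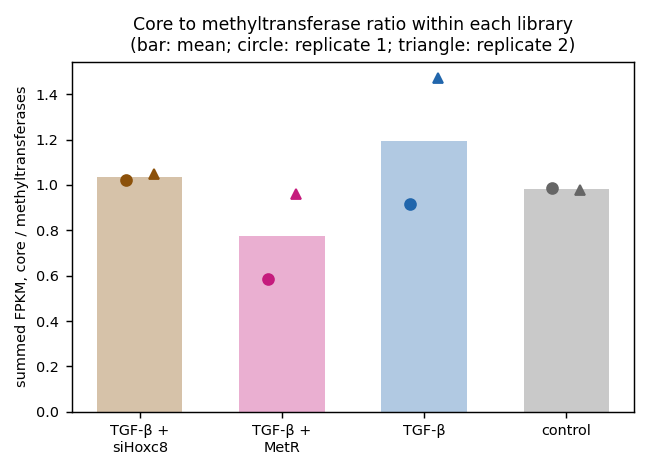
Ratio of the summed FPKM of the 4 core genes to that of the 6 methyltransferase genes (y axis) in each of the 8 libraries by group (x axis). The MetR libraries lie at 0.587 and 0.961 and the TGF-β libraries at 0.914 and 1.47, while the siHoxc8 and control libraries lie within 0.98 and 1.05.

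Subunits found in only some of the complexes were measured next, 12 genes that include menin (Men1), Cxxc1, Wdr82, Hcfc1, Ncoa6 and Kdm6a. With MetR against TGF-β, 5 of the 12 rose and none fell, a share not far from the 34.8% of all genes called higher. They were led by Bod1l1, a partner of the Setd1a complex (1.46 ± 0.13, limma adjusted p = 0.000189), Bod1 (0.93 ± 0.13, limma adjusted p = 0.000919) and Paxip1 of the Kmt2c and Kmt2d complexes (0.61 ± 0.11, limma adjusted p = 0.00335). With siHoxc8 against TGF-β, 7 rose and none fell, beside 28.1% of all genes called higher, led by Psip1, which tethers menin complexes to chromatin (1.22 ± 0.12, limma adjusted p = 0.000268), and by the host cell factors Hcfc2 (0.91 ± 0.13, limma adjusted p = 0.00121) and Hcfc1 (0.87 ± 0.29, limma adjusted p = 0.0452). Hcfc1, with a length of 9121 bases, stood at 8.18 FPKM in TGF-β replicate 1 and 3.74 in replicate 2, so its call rests on replicates that lay apart. With TGF-β against control, 5 fell and none rose, beside 28.6% of all genes called lower, among them Psip1 (-1.0 ± 0.12), Bod1l1 (-0.76 ± 0.13) and Paxip1 (-0.52 ± 0.11), with limma adjusted p of 0.000789, 0.00366 and 0.0107. Bod1l1 had 16.7 FPKM in both TGF-β with MetR libraries, against 6.17 and 4.78 FPKM in TGF-β cells, a step like that of Setd1b. Psip1 rose less with MetR (0.37 ± 0.12, limma adjusted p = 0.0313) than with siHoxc8. It had 21.7 and 22.9 FPKM in TGF-β with siHoxc8 cells, against 10.8 and 13.0 FPKM in TGF-β with MetR cells. In TGF-β cells it had 9.09 and 8.83 FPKM. The median changes of the 12 were 0.41 with MetR, 0.40 with siHoxc8 and -0.36 with TGF-β. After rescaling, 4 of these 12 were higher with MetR, 4 higher and 1 lower with siHoxc8, and 1 higher and 2 lower with TGF-β.

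Of 6 genes for enzymes that remove H3K4 methylation, 4 rose with MetR against TGF-β and none fell, beside 34.8% of all genes called higher. They were led by Kdm1b (0.86 ± 0.11, limma adjusted p = 0.000817), Kdm5d (0.85 ± 0.11, limma adjusted p = 0.000588) and Kdm5a (0.36 ± 0.12, limma adjusted p = 0.0368). With siHoxc8 against TGF-β, Kdm5d (0.47) and Kdm1a (0.36) rose and Kdm5b fell (-0.32), beside 28.1% and 15.7% of all genes, with limma adjusted p of 0.00938, 0.016 and 0.026. With TGF-β against control, 3 fell, beside 28.6% of all genes, namely Kdm5d (-0.86), Kdm5a (-0.49) and Kdm1b (-0.40), with limma adjusted p of 0.000904, 0.0168 and 0.028. Their median changes were 0.31 with MetR, 0.22 with siHoxc8 and -0.27 with TGF-β. After rescaling, 2 were higher with MetR, 1 higher and 1 lower with siHoxc8, and 1 higher and 1 lower with TGF-β. Of other SET-domain genes linked to H3K4, 4 of 7 could be tested, with median changes of -0.04 with MetR, 0.18 with siHoxc8 and -0.39 with TGF-β. Setd7, a monomethyltransferase, fell with MetR (-0.88 ± 0.24, limma adjusted p = 0.0168) and with siHoxc8 (-0.85 ± 0.24, limma adjusted p = 0.0238) against TGF-β. Ash1l rose with MetR (0.76 ± 0.15, limma adjusted p = 0.00429), and Smyd2 rose with siHoxc8 (0.38 ± 0.09, limma adjusted p = 0.0149). With TGF-β against control, Setmar (-0.53), Ash1l (-0.50) and Smyd2 (-0.29) fell, with limma adjusted p of 0.027, 0.0345 and 0.0438, although none of the 4 was called lower after rescaling, and none was called higher with siHoxc8 then.

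Histone H2B ubiquitylation by Rnf20 and Rnf40, together with the PAF1 complex, acts upstream of H3K4 trimethylation. Of 9 such genes tested, 3 rose and 2 fell with MetR, 2 rose and 3 fell with siHoxc8, each against TGF-β, and 2 rose and 3 fell with TGF-β against control. Rnf40 (0.80 ± 0.12, limma adjusted p = 0.00121) and Ctr9 (0.55 ± 0.10, limma adjusted p = 0.00366) rose with MetR while Paf1 fell (-0.66 ± 0.11, limma adjusted p = 0.00198). With siHoxc8, Ctr9 rose (0.68 ± 0.10) while Cdc73 (-0.78 ± 0.17) and Rnf20 (-0.69 ± 0.12) fell, with limma adjusted p of 0.00182, 0.00793 and 0.00273. With TGF-β, Paf1 (0.46) and Ube2a (0.43) rose and Rtf1 fell (-0.50), with limma adjusted p of 0.0144, 0.0169 and 0.00464. The shares of all genes called higher and lower were 34.8% and 19.0% with MetR, 28.1% and 15.7% with siHoxc8, and 10.3% and 28.6% with TGF-β. Calls thus went in both directions in each comparison, and the median changes were 0.09 with MetR, -0.10 with siHoxc8 and 0.03 with TGF-β. After rescaling, 3 were higher and 3 lower with MetR, 1 higher and 3 lower with siHoxc8, and 3 higher and 1 lower with TGF-β, where the median was 0.24.

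Proteins that read H3K4 methylation through PHD fingers and related domains were represented by 14 genes tested. With MetR against TGF-β, 6 rose and none fell, a share not far from the 34.8% of all genes called higher, led by Ing3 (1.03 ± 0.13, limma adjusted p = 0.000688), Ing1 (0.97 ± 0.15, limma adjusted p = 0.00165) and Phf13 (0.83 ± 0.10, limma adjusted p = 0.000555). With siHoxc8 against TGF-β, 6 rose and 1 fell, beside 28.1% and 15.7% of all genes, and the largest rises were those of Ing2 (0.84), Ing5 (0.80) and Ing3 (0.73), with limma adjusted p of 0.00275, 0.00747 and 0.00388. With TGF-β against control, 7 fell and none rose, beside 28.6% of all genes called lower, including Phf2 (-0.66), Bptf of the NURF remodeller (-0.65) and Ing5 (-0.65), with limma adjusted p of 0.00351, 0.0223 and 0.0203. The median changes of the 14 were 0.35 with MetR, 0.34 with siHoxc8 and -0.47 with TGF-β. After rescaling, 4 were higher and 1 lower with MetR, 4 higher and 1 lower with siHoxc8, and 1 higher and 1 lower with TGF-β.

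The supply of methyl groups was followed through 8 genes of methionine uptake and S-adenosylmethionine metabolism. With MetR against TGF-β, 6 rose and 1 fell, beside 34.8% and 19.0% of all genes. Mat2a, which makes S-adenosylmethionine, had 293 and 402 FPKM in TGF-β with MetR cells, against 69.8 and 74.6 FPKM in TGF-β cells (2.23 ± 0.15, limma adjusted p = 7.03e-05). It stood at 70.8 and 73.4 FPKM in TGF-β with siHoxc8 cells, which overlapped TGF-β cells (limma adjusted p = 0.998). Slc7a5, a transporter of large neutral amino acids, rose with MetR (2.55 ± 0.17, limma adjusted p = 7.03e-05) and with siHoxc8 (2.66 ± 0.17, limma adjusted p = 5.64e-05) against TGF-β. Ahcyl1, a relative of adenosylhomocysteinase, fell with MetR (-1.21 ± 0.09, limma adjusted p = 9.05e-05). With siHoxc8, 4 rose and 1 fell, beside 28.1% and 15.7% of all genes, Mtrr (0.65) and Slc3a2 (0.60) among the rises, with limma adjusted p of 0.00392 and 0.0142. With TGF-β against control, Mtrr (-0.66) and Mat2b (-0.48) fell and none rose, with limma adjusted p of 0.00453 and 0.0287. Of all genes, 28.6% were called lower and 10.3% higher in that comparison. The median changes of the 8 were 0.80 with MetR, 0.28 with siHoxc8 and -0.20 with TGF-β. After rescaling, 6 were higher and 1 lower with MetR, 3 higher and 2 lower with siHoxc8, and 1 lower with TGF-β. Against TGF-β, Setd1b, Kmt2d and Wdr5 were called higher in both combined treatments, and so were Slc7a5, Mtrr and Slc3a2. Ahcyl1 was called lower in both, whereas Mat2a rose in MetR cells and was not called in siHoxc8 cells. Both comparisons share the 2 TGF-β libraries, so these calls are not separate evidence. The call of Wdr5 with siHoxc8 held in 8 of 19 alternatives.

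Likeness of pattern was measured over the 8 libraries as the root mean square difference in log2(FPKM + 1) after centring each gene, as a description. Among members, Setd1b and Kmt2d were each other's nearest at 0.122, and Kmt2a and Kmt2c were each other's nearest at 0.149, whereas Dpy30 was furthest from any other member, with Ash2l nearest at 0.25. Over all genes, Setd1b was closest to Bcl2l13 (0.083) and Rest (0.118), Kmt2d to AABR07047789.1 (0.082), Bcl2l13 (0.113) and Pou6f1 (0.118), Kmt2a to Rbm33 (0.131), Tet2 (0.136) and Glis3 (0.139), and Kmt2c to Tet2 (0.101), Epg5 (0.13) and AABR07001382.1 (0.132). Kmt2b was closest to Mllt6 (0.062), Rnf44 (0.064) and Gcn1 (0.067), and Setd1a to Ap3d1 (0.054), Zfp57 (0.071) and Fam120a (0.078). For the core genes the near ones included Exosc1 (0.044), Plekha6 (0.052) and Poldip2 (0.054) for Wdr5, Dmtf1 (0.054), Srfbp1 (0.056) and Dis3 (0.058) for Rbbp5, Nt5c3b (0.054), Gin1 (0.056) and U2surp (0.059) for Ash2l, and Vdac3 (0.065) and Ptcd3 (0.071) for Dpy30. Values of some members are uncertain, because the strand setting of the counting is not given in the sources used here and RefSeq places other genes of the table over Kmt2b (Mir3569), Kmt2c (Galnt11, Galntl5 and Prkag2), Kmt2d (Tuba1c) and Rbbp5 (Tmem81), and because Wdr5 and Dpy30 have near copies (Wdr5b and the Dpy30 pseudogenes).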

How the data were processed

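RNA-seq was measured in 8 libraries of NRK-49F cells, grouped by sample title into 4 groups of 2. The authors deposited 1 table of FPKM values for all 8, per the labels. Per the submitters' processing notes, which give no roles, the build was rn6 and the tools included featureCounts, deepTools, Trim Galore and Bowtie2 2.3.5.1. No annotation or strand setting is given in the sources used here. All 13 mitochondrially encoded genes and 10743 genes in total were listed at 0, and such zeros are not read as absence. FPKM steps gave whole reads for 100.0% of 19435 genes (tolerance 0.02 reads), and the gene lengths used for FPKM were read from the same steps.

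Values were compared as log2(FPKM + 1) with limma 3.58.1 (trend, R 4.3.3), 1 coefficient per group over all 8 libraries so that groups share the spread (4 residual and 3.47 prior degrees of freedom), for genes that reached 1 FPKM in 2 or more libraries. Two-sided p-values were adjusted by Benjamini-Hochberg within each of 6 comparisons, and the fit was tested on simulated data. Named genes were all 10 members, Hoxc8 and Mat2a, up to 3 called genes of each related list per main comparison by size of change, and the 3 genes nearest in pattern to each member, of which 1 is not reported here. The members, lists, tests and alternatives were chosen with earlier results of these data known. The alternatives changed the pseudocount, the filter, the scaling, the test (limma-voom on recovered reads), the trend with gene length, a replicate block, library weights, the groups in the fit and the libraries included. Promoter windows came from RefSeq (GRCr8), whose build differs from rn6, so RefSeq served otherwise for names and neighbours alone, with 17436 symbols matched.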

Additional observations from a re-analysis of the deposited data

How the results depend on the processing

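With 19 alternatives, the 60 changes of the members gave 1140 values, of which 980 kept their direction and their side of the threshold, 63 passed it only under the alternative, 52 no longer passed it and 45 changed sign, none of these past the threshold. For TGF-β against control, genes higher and lower numbered 2274 and 2140 after median ratio rescaling, 2079 and 2102 after quantile normalization, 2277 and 2158 with limma-voom on recovered reads, and 2362 and 2078 with the length trend removed, against 1269 and 3523 as reported. With 1 library left out they numbered 599 to 1768 higher and 1577 to 4546 lower, those for siHoxc8 against TGF-β 1933 to 4319 and 1145 to 2436, and those for siHoxc8 against control 1607 to 3306 and 2046 to 3898, fewest without a library of the groups compared, which leaves 1 sample in a group, assumed to vary like the other groups.

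Members lower with TGF-β against control numbered 2 with a mean of at least 5 FPKM, 0 after quantile normalization, 3 with library weights, 2 with the 2 groups alone and 0 to 3 with 1 library left out. With MetR against TGF-β, 1 member was lower after median ratio rescaling, quantile normalization or limma-voom, and 0 to 1 with 1 library left out. With siHoxc8 against TGF-β, 1 was higher after rescaling or quantile normalization, 6 with library weights, 5 with the 2 groups alone and 1 to 5 with 1 library left out. With MetR against control, 1 was lower after rescaling, quantile normalization or limma-voom, 3 to 6 were higher and 0 to 1 lower with 1 library left out. With siHoxc8 against control, 0 were higher with no filter, 2 after rescaling, quantile normalization or limma-voom, 4 with the length trend removed, and 3 with library weights or the 2 groups alone, where 2 were lower; with 1 library left out, 0 to 2 were higher and 0 to 1 lower. With siHoxc8 against MetR, 0 were higher with the 2 groups alone, and 0 to 1 were higher and 0 to 5 lower with 1 library left out.

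Same-numbered deviations correlated at -0.02 to 0.024 between groups, except at 0.202 between TGF-β with MetR and TGF-β, and with 2 libraries a group the numbers were not taken to pair them. With a replicate block, 8 members were higher with MetR against TGF-β, Kmt2a among them (0.77, adjusted p = 0.0269), 2 members were lower with TGF-β against control, 1 lower with MetR against control, and 2 higher and 1 lower with siHoxc8 against control. Sign changes for TGF-β against control, in the order rescaling, quantile normalization, limma-voom and length trend removed, were 0.14, 0.14, 0.15 and 0.24 for Setd1a, 0.14, 0.09, 0.15 and 0.16 for Wdr5, 0.00, 0.06, 0.00 and 0.06 for Rbbp5, while Kmt2b gave 0.01 with quantile normalization and 0.07 with the length trend removed, Kmt2d 0.06 with the length trend removed, Setd1b 0.02 with quantile normalization, and Dpy30 0.03 after rescaling and with limma-voom. For siHoxc8 against control they were 0.04, 0.08, 0.04 and 0.06 for Ash2l and 0.04, 0.09, 0.05 and 0.09 for Rbbp5, and for siHoxc8 against MetR 0.02, 0.09, 0.02 and 0.03 for Ash2l, which was -0.01 for MetR against control with quantile normalization. With 1 library left out, the changes whose sign varied ranged from -0.19 to 0.06 for Setd1a and -0.17 to 0.03 for Wdr5 in TGF-β against control, -0.45 to 0.02 for Dpy30 in MetR against TGF-β, -0.14 to 0.83 for Kmt2a in siHoxc8 against TGF-β, -0.37 to 0.15 for Kmt2a, -0.09 to 0.34 for Kmt2c and -0.23 to 0.27 for Ash2l in MetR against control, -0.04 to 0.01 for Ash2l and -0.12 to 0.09 for Rbbp5 in siHoxc8 against control, and -0.28 to 0.22 for Ash2l in siHoxc8 against MetR.

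The mean core to catalytic ratio was 0.605 without Dpy30 and 1.66 without Kmt2d for siHoxc8, 1.23 without Kmt2d for MetR, 0.694 and 1.76 for TGF-β, and 0.575 and 1.44 for control. With 2 libraries per group, precision is set by their spread more than by the 343 or more reads behind each member, and Kmt2a in particular was measured with an SE of 0.30.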
